A study of Mus musculus with 9 samples.

Results

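This section describes where wild-type Dnmt3a2 placed DNA methylation when it was returned to mouse embryonic stem cells that had almost none. The unit is the CpG position, which is the cytosine of a CpG on a single strand. A position was included when it lay in the nuclear genome and was covered by at least 10 reads in both the WT and the TKO table. This rule kept 1288864 positions, 73.6% of the 1750087 positions found in either table. Of these, 916029 (71.1%) were at full depth, meaning that TKO coverage was 0.5 times WT coverage or more. Levels below are the percent of reads that kept a C at full-depth positions, unless stated otherwise. The choice used coverage and not methylation.

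The cells were J1 embryonic stem cells at passages 7 to 10, a pluripotent mouse line, and all groups carried the genotype labelled Dnmt TKO. The TKO group (1 sample) carried no construct. The WT group (2 samples) carried a WT Dnmt3a2 construct. The R and WWD groups (2 samples each) carried R Dnmt3a2 and WWD Dnmt3a2, and the C group (2 samples) has no construct in its labels. These 3 groups serve here only as further readouts at the positions that WT and TKO define. The labels name 1 table per group, so each value comes from a single table and has no replicate error. Whether a table of WT, R, WWD or C pools both samples of its group or holds only 1 of them is not given in the sources used here. The range over the 19 autosomes is given as a measure of spread, which is not replicate error. The labels do not say which promoter drove the construct or whether a group was a single clone, and the amount of enzyme in the cells was not measured here.

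A TKO (triple knockout) embryonic stem cell has no Dnmt1, Dnmt3a or Dnmt3b. Dnmt1 copies methylation to the new strand after replication, while Dnmt3a and Dnmt3b write it on unmethylated DNA. Dnmt3a2 is the shorter Dnmt3a isoform and the form common in embryonic stem cells. Its ADD domain binds histone H3 tails that are unmethylated at lysine 4, and that lysine is usually methylated at CpG islands, the CpG-dense stretches found at many promoters.

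The assay was reduced representation bisulfite sequencing. It reads the CpGs near cut sites of MspI, which recognises CCGG, and bisulfite turns unmethylated C into T. Positions are therefore crowded into short fragments, and a stretch with no covered position was not measured. Median coverage over nuclear positions was 104 reads in WT, 87 in TKO, 103 in R, 75 in WWD and 66 in C. At full-depth positions it was 135 reads in WT and 132 in TKO. Mitochondrial CpGs averaged 0.0675% in WT and 0.0771% in TKO. Positions left out as reduced depth had a median of 16 TKO reads and means of 17.96% in WT and 1.37% in TKO. Just inside the limit, at ratios of 0.5 to 0.6, 43563 positions averaged 10.04% in WT, and just outside, at ratios of 0.4 to 0.5, 29143 positions averaged 10.1%. Reads carry no molecular identifiers and PCR copies are counted as reads, so intervals cover counting error only.

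In WT 64.9% of positions were under 10%, and the rest were spread widely over intermediate levels. The mean was 13.2% in WT, with autosomes between 12.03% (chromosome 19) and 14.1% (chromosome 8). The mean was 0.171% in TKO (0.159% to 0.177% over autosomes), 0.26% in C, 3.39% in WWD and 13.3% in R. The WWD mean depended strongly on the depth rule. Over all joined positions the means were 14.6% in WT, 0.518% in TKO, 0.334% in C, 6.2% in WWD and 15.3% in R. At full depth the median WT position held only 1.19%, and 42.7% of positions had no methylated read. Above that floor the full-depth positions showed no separate peak of fully methylated sites. Levels of 10 to under 20% were found at 8.48% of positions, 20 to under 30% at 7.23%, 30 to under 40% at 6.16%, 40 to under 50% at 5.07% and 50 to under 60% at 4.06%. Only 2538 positions (0.277%) lay between 80 and 90%, and 253 (0.0276%) at 90% or more. At 50% or more were 74922 positions, 8.18% of all at full depth (Wilson 95% interval 8.12 to 8.24). Over all joined positions this share was higher, 10.6%. The spread of levels at the reduced-depth positions is not given here.

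This spread was far wider than read counting gives. The SD of WT levels over positions was 19.7 points, where counting error alone would give 2.99. In TKO the SD was 0.653 points, with 0.488 from counting. Position by position, Fisher's exact test (two-sided) was run on the reads of the WT and TKO tables, with Benjamini-Hochberg adjustment over all joined positions. Of 1288864 positions, 290433 (22.5%) were higher in WT at an adjusted p under 0.01 and at least 25 points, and 825 (0.064%) were lower. At full depth 203137 of 916029 (22.2%) were higher, with a median difference of 43.5 points, and 1 (0.000109%) was lower. At reduced depth 87296 of 372835 (23.4%) were higher and 824 (0.221%) lower. The test compares 2 tables of reads and not conditions.

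Levels were ordered by the density of covered CpG positions. Density is counted here as the covered positions of the 1 kb tile that holds the site. It counts positions read in both WT and TKO, and not the CpGs of the sequence. Where a tile had under 5 positions, the WT mean was 28.4% and the median 25.5%, and 14.7% of positions were below 5%. In tiles with 5 to 9 positions the mean was 25.96% and the median 22.1%. In tiles with 10 to 19 positions the mean fell to 13.3% and the median to 2.78%. In tiles with 20 to 39 positions the mean was 2.23%, and in tiles with 40 or more 0.463%, where 79.1% of positions had no methylated read. TKO held 0.247% in the sparsest class and 0.128% in the densest. Called positions were 48.9% of the class under 5, 45.1% of the class 5 to 9, 21.6% of the class 10 to 19, 2.38% of the class 20 to 39 and 0.138% of the densest class, against 22.2% over all full-depth positions.

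**Figure D1:**
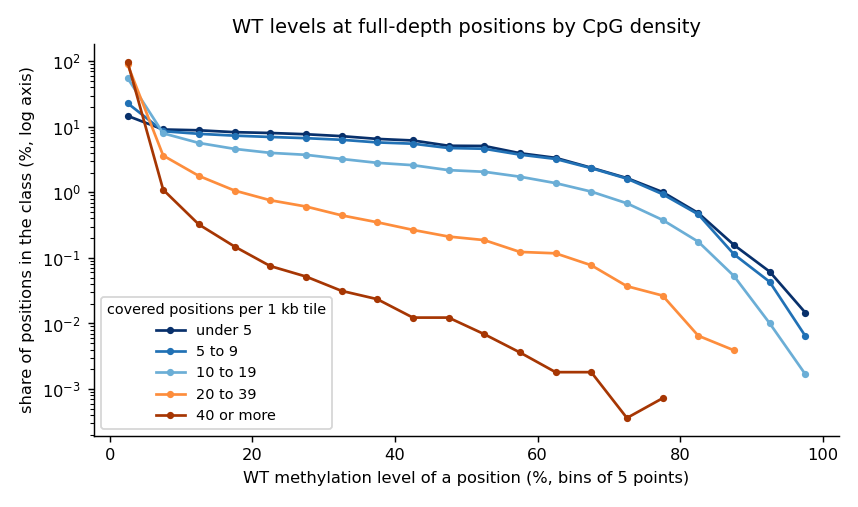
WT methylation level of full-depth CpG positions in bins of 5 points (x axis) against the share of the positions of a density class in each bin (y axis, log scale), with 1 line per class of covered positions per 1 kb tile. The class under 5 declines slowly, from 14.7% of its positions below 5% to 5.11% at 50 to 55%, while the classes of 20 to 39 and 40 or more are concentrated in the lowest bin.

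Sites that reached 50% were mostly in tiles with few covered positions. Of the 74922, 51.4% lay in tiles with under 5 positions, 35.5% in tiles with 5 to 9, 11.9% in tiles with 10 to 19, 1.19% in tiles with 20 to 39 and 0.0561% in dense tiles. These classes held 23.1%, 16.9%, 13.0%, 16.8% and 30.2% of all full-depth positions. Over these sites WT averaged 61.6% and TKO 0.197%. The other tables, which had no part in choosing them, held 59.5% (R), 19.97% (WWD) and 0.5% (C). The 2791 sites at 80% or more had 84.04% in WT, 75.95% in R and 39.2% in WWD. At the opposite end, the 391367 positions with no methylated read in WT held 0.38% in R, 0.219% in WWD and 0.123% in TKO.

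CpGs a short way apart could take very different levels in WT, and the same ones tended to be high or low in R and WWD. This was examined in 30661 tiles with fewer than 20 covered positions, each with at least 5 at full depth (232036 positions). Within a tile the SD around the tile mean was 13.4 points in WT, where counting gives 3.46. The median gap between the highest and the lowest position of a tile was 32.2 points, with 1.61 points at the 10th and 59.9 points at the 90th percentile of tiles. Tile means themselves had an SD of 17.3 points, against 13.4 points inside tiles.

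The deviation of a position from its tile mean was then read in every table, over 229420 positions of 30364 tiles. Pearson's correlation of the WT deviation was 0.894 with R, 0.741 with WWD, 0.0526 with C and -0.0181 with TKO. These are correlations across positions, which share tiles and reads and are not replicates. C and TKO lay near the floor, with SDs of 0.847 and 0.653 points over full-depth positions. They had little variation that could follow WT, so their low correlations are no contrast to R and WWD. At 16085 positions (7.01%) the WT level was 20 points or more above the tile mean, by 27.7 points on average. At these positions R was 26.1 points above its own tile mean, WWD 14.8 above, C 0.126 above, and the TKO deviation was -0.0312 points. At 13183 positions (5.75%) WT was at least 20 points below the tile mean. The mean deviation there was -26.9 points in WT, -25.5 in R and -9.32 in WWD.

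The place of a position in its read is the same in every table, so the deviations were also read away from the first covered position of a strand. Positions were called inner where another position of the same strand lay within 100 bp on the side from which the read comes. The WT deviations of 109642 inner positions had an SD of 11.6 points, and their correlation was 0.899 with R and 0.773 with WWD. Positions at the far end of a read were kept among the inner ones. The correlations therefore do not set aside place in the read in full. Flanking bases, which are known to affect how readily Dnmt3a acts on a CpG, could not be read here because no genome sequence of this build was used.

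Levels were alike over short distances and this likeness faded within a few kb. Over 589694 pairs of different CpGs at most 10 bp apart, Pearson's r between WT levels was 0.801. In the classes below, a separation equal to a shared bound belongs to the shorter class. It was 0.774 at 11 to 30 bp, 0.733 at 31 to 100 bp and 0.737 at 100 to 300 bp (4033473 pairs). Beyond that it fell to 0.582 at 300 to 1000 bp, 0.308 at 1000 to 3000 bp, 0.103 at 3000 to 10000 bp and 0.0181 at 300000 to 1000000 bp. Neighbouring positions also share their density class. With the mean of each density class subtracted, r was 0.668 up to 10 bp, 0.435 at 100 to 300 bp, 0.203 at 300 to 1000 bp and 0.067 at 3000 to 10000 bp.

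Shared reads can make neighbours alike, since a read that covers both CpGs counts in both. Pairs on opposite strands share no read. With density subtracted, r up to 10 bp was 0.675 on the same strand and 0.63 on opposite strands. At 11 to 30 bp it was 0.603 and 0.604, and at 100 to 300 bp 0.441 and 0.431. The 2 strands of a single CpG had a lower r than different CpGs up to 10 bp apart. Over 89120 such pairs r was 0.739 as measured and 0.549 with density subtracted. Opposite-strand positions of different CpGs up to 10 bp apart had 0.63 with density subtracted. These are different sets of sites that were not matched, and the cause of the difference was not tested. R had the same course, with 0.514 for the 2 strands, 0.637 up to 10 bp and 0.195 at 300 to 1000 bp. WWD values were lower, at 0.208, 0.417 and 0.111, and TKO values were 0.0367, 0.054 and -0.000322. TKO levels lay near the floor and had little variation to correlate.

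**Figure D2:**
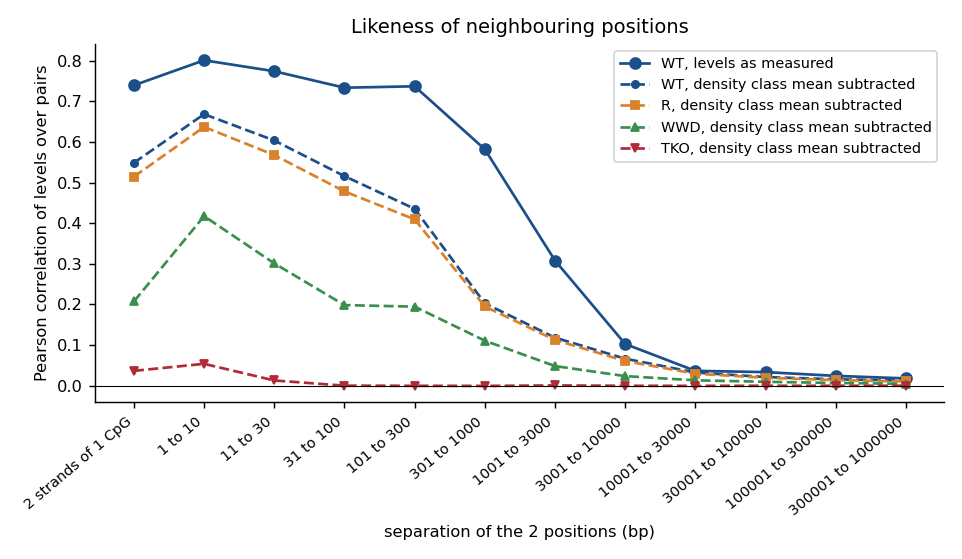
Pearson correlation of methylation levels over pairs of full-depth positions (y axis) by the separation of the pair in bp (x axis), for WT as measured (solid) and for WT, R, WWD and TKO after subtracting the mean of each density class (dashed). WT starts at 0.801 for neighbours up to 10 bp apart and is near 0 beyond 10 kb, R lies just below WT, and TKO stays near 0 throughout.

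A high site was often next to a middling one. Of the 74922 sites at 50% or more, 49905 had their nearest covered position within 30 bp. That neighbour averaged 43.3%, was itself at 50% or more in 41.0% of cases, and was below 10% in 6.1% (3045 sites). For all positions the nearest neighbour within 30 bp averaged 10.6% and was at 50% or more in 6.91%. At longer range the partner of a high site was itself high in 30.8% of pairs at 100 to 300 bp, 15.7% at 1000 to 3000 bp and 9.39% at 300000 to 1000000 bp, near the 8.18% of all positions.

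Runs of consecutive high full-depth positions held a small share of the high sites. A high run was defined as at least 5 consecutive full-depth positions, each at 50% or more in WT and each within 10 kb of the next. There were 588, holding 3276 positions, which is 4.37% of the high sites. Of these runs, 112 passed over at least 1 reduced-depth position under 50% in WT. The number of runs depended on the definition. It was 1758 over all joined positions, 225 over inner positions only, 2341 with a limit of 40% and 79 with a limit of 60%. With neighbours at most 2 kb apart it was 395. For the 588 runs the median span was 908 bp and their median size 5 positions, and none had a position in a dense tile. Over them WT averaged 64.2% by the rule that chose them. R averaged 62.1% and was at 50% or more over 567 of the 588 runs. WWD averaged 21.6%, with 1 run at 50% or more, and C and TKO held 0.54% and 0.178%.

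The longest high run by positions lay on chromosome 12 from 5057701 to 5058444 (build mm9, as are all coordinates here). Its 14 positions in 744 bp ranged from 50% to 86.96% in WT, with a mean of 68.9%, and the median coverage was 160 reads. R held 66.9% there, WWD 14.2%, C 0.475% and TKO 0.388%. WT and R were high in this run, and the other 3 tables were far lower. On chromosome 4, from 130944047 to 130956128, 11 positions averaged 70.5% in WT, 70.7% in R and 36.7% in WWD. The C table held 2.44% and TKO 0.808% there, and 2 positions of reduced depth inside that run were under 50% in WT. On chromosome 6, from 117678576 to 117685927, 11 positions averaged 62.5% in WT, 58.7% in R, 9.37% in WWD and 0% in TKO.

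The remaining 2 of the 5 longest were on chromosome 12 from 103823609 to 103832248, with 64.3% in WT and 16.1% in WWD, and on chromosome 17 from 25785103 to 25787316, with 63.7% and 24.3%. They passed over 2 and 4 reduced-depth positions under 50% in WT, and the first run on chromosome 12 and the run on chromosome 6 over none. Much of the span of some runs was a single stretch without a full-depth position. The largest was 9.1 kb of 12.1 kb on chromosome 4 and 6.2 kb of 7.35 kb on chromosome 6. In the second run on chromosome 12 it was 5.59 kb of 8.64 kb, and on chromosome 17 1.77 kb of 2.21 kb. WWD thus ranged from 9.37% to 36.7% over 5 runs where WT lay between 62.5% and 70.5%. The regions are given by position alone, because an mm9 annotation was not used.

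Methylation was nearly absent inside CpG-dense tiles and rose within a few kb of them. A dense tile is a 1 kb tile with 40 or more covered positions, as in CpG islands, and 6416 tiles met this. Inside them the WT mean was 0.463% (0.323% to 0.705% over autosomes) and 0.138% of positions were called higher. In the adjacent tile it was 2.13%, 2 tiles away 11.7%, 3 to 4 tiles away 16.03%, 5 to 9 tiles away 18.2% and 20 to 49 tiles away 20.4% (17.6% to 22.6% over autosomes). The called share rose alongside, from 2.11% in the adjacent tile to 17.8% at 2 tiles and 35.0% at 20 to 49 tiles, against 22.2% overall. The share of joined positions at full depth was 69.5% to 73.3% in every one of these classes.

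The rise was also read within single classes of covered positions per tile. Within tiles that held under 5 covered positions, the WT mean was 8.34% next to a dense tile (5.32% to 10.7% over autosomes, 3190 positions). It was 22.9% at 2 tiles, 27.5% at 3 to 4, 30.1% at 10 to 19 and 31.5% (30.2% to 33.04%) at 50 to 99. At 100 tiles or more it was lower again, 27.2% (25.4% to 29.3% over autosomes, 110426 positions), and the autosome ranges of these last 2 classes did not overlap. R followed the same course, with 8.1% next to a dense tile, 31.1% at 50 to 99 tiles and 27.6% beyond. WWD held 2.56%, 7.07% and 5.93%, and TKO 0.21%, 0.25% and 0.247%. These means include the X chromosome, which the autosome ranges leave out. Median WT coverage was 136 reads at 50 to 99 tiles and 121 at 100 or more, and its part in the levels was not tested.

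**Figure D3:**
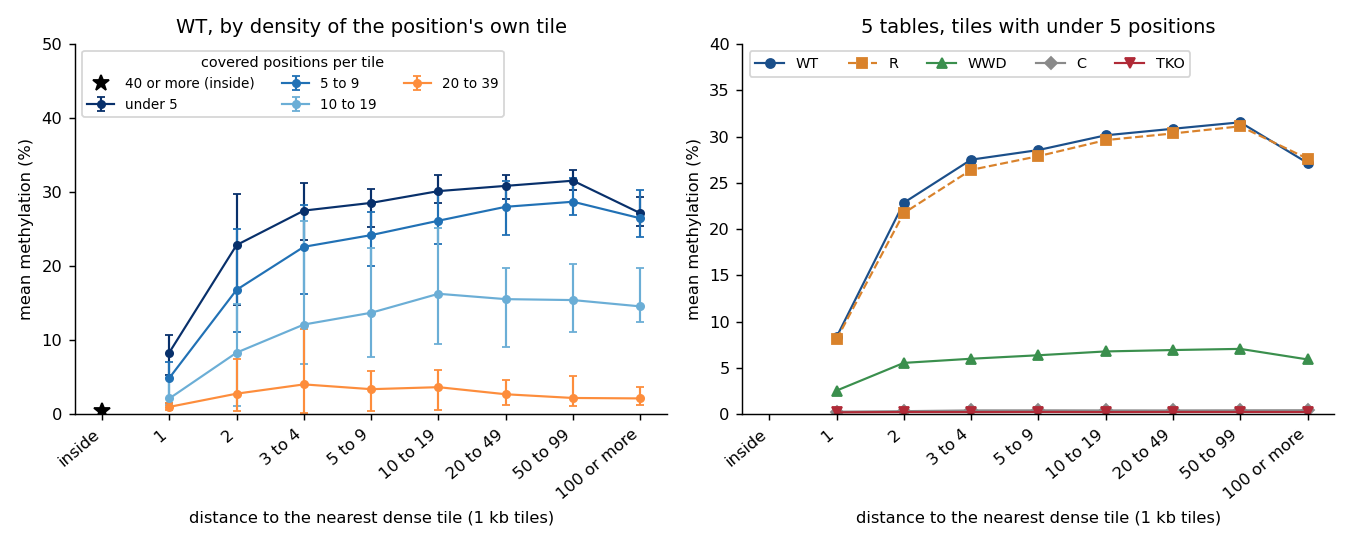
Mean methylation of full-depth positions (y axes, %) by distance to the nearest dense tile in 1 kb tiles (x axes). The left panel gives WT by the density of the position's own tile with bars from the lowest to the highest autosome, and the right panel gives the 5 tables for tiles with under 5 positions, where WT climbs from 8.34% beside a dense tile to 31.5% at 50 to 99 tiles while TKO and C stay at the bottom.

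Denser tiles started lower and stayed lower. In tiles with 5 to 9 positions WT held 4.9% next to a dense tile and 28.0% at 20 to 49 tiles, and in tiles with 10 to 19 positions 2.13% and 15.5%. Tiles with 20 to 39 positions held 1.0% next to a dense tile, 4.04% at 3 to 4 tiles and 2.71% at 20 to 49 tiles, and their autosome range at 3 to 4 tiles was 0.227% to 11.5%. These tiles of middling density thus stayed near empty even far from a dense tile.

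Unmethylated gaps were many, and most were short. A gap was defined as at least 20 consecutive full-depth positions, each under 10% in WT and each within 10 kb of the next. There were 8951 gaps with 441188 positions, 48.2% of all full-depth positions and 74.2% of those under 10%. Their median span was 1.17 kb, and 400 were longer than 10 kb. Of those 400, 208 were among the 7633 gaps that passed over no reduced-depth position at 10% or more in WT. A span can include stretches of up to 10 kb without a full-depth position, where no level was read at that depth. Of the positions in dense tiles, 97.4% lay in a gap, and of those in tiles with under 5 covered positions, 3.04%. The definition contributes to this contrast, since a gap needs 20 consecutive positions and a dense tile can hold them alone. Of the 6416 dense tiles, 6275 (97.8%) were touched by a gap. In all 5 tables the gaps were near the floor: R averaged 0.514%, WWD 0.319%, C 0.141% and TKO 0.133%, where WT had 0.425% by the rule. No gap had an R or WWD mean of 10% or more. A total of 1318 gaps passed over at least 1 reduced-depth position at 10% or more in WT.

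A sizeable group of gaps had no dense tile. These 3483 gaps (38.9%) held 108888 positions with a median of 28 positions each and a median span of 987 bp. WT averaged 0.583% in them and R 0.728%, against 0.373% and 0.444% in the 5468 gaps that held a position in a dense tile. WWD averaged 0.414% and 0.287%, and TKO 0.138% and 0.132%. Levels in both kinds of gap were below 1% in these tables, and WT, R and WWD were higher in the kind without a dense tile.

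The longest gap by span, 40.7 kb on chromosome 13 from 23515530 to 23556194, had no dense tile and 30 positions, with neighbours up to 9.82 kb apart. WT averaged 0.644% there with a highest position of 8.24%, R 0.558%, WWD 0.468%, C 0.214% and TKO 0.245%. The next by span were on chromosome 7 from 13610145 to 13638465 (28.3 kb, 83 positions), chromosome 2 from 18594103 to 18621028 (26.9 kb) and from 29907613 to 29934104 (26.5 kb, 142 positions), and chromosome 4 from 132065873 to 132091850 (26.0 kb, 94 positions). Over these 4 the WT means were 0.342% to 0.568%. The largest spacing between neighbours in each of these 4 was between 7.31 and 9.9 kb. Of the 5, 4 were broken when all joined positions were read: reduced-depth positions at 10% or more in WT numbered 1 in the gap on chromosome 13, 10 on chromosome 7, 1 in the 26.5 kb gap on chromosome 2 and 2 on chromosome 4. The 26.9 kb gap on chromosome 2 passed over none and has the most positions of the 5, 219, 65 of them in dense tiles, at 0.471% in WT, 0.627% in R, 0.352% in WWD, 0.108% in C and 0.184% in TKO.

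By number of positions the gaps at the top were on chromosome 11 from 120091357 to 120099229 (265 positions in 7.87 kb, WT 0.524%), chromosome 17 from 39979254 to 39981559 (225 positions), chromosome 5 from 125341914 to 125344240 (220 positions, WT 0.205%), the 26.9 kb gap of chromosome 2, and chromosome 2 from 153353650 to 153356595 (217 positions, WT 0.26%). The gap on chromosome 17 had the highest WT mean of these, 1.59%, with 0.972% in R, 0.267% in WWD, 0.338% in C and 0.0659% in TKO. Median coverage in that gap was 182 reads in WT and 124 in TKO. R and WWD each covered 219 of its 225 positions, and C 208. The gap on chromosome 17 passed over 1 reduced-depth position at 10% or more in WT and the gap on chromosome 2 at 153353650 over 2, and the other 3 of these over none.

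Levels rose sharply at the edges of gaps, in part by the rule that set the edges. WT levels defined them, and R deviations from tile means followed WT at a correlation of 0.894. The steps in R and WWD are therefore not free of that choice. In the first 30 bp inside an edge R held 1.13%, and in the first 30 bp outside it 12.3%. WWD held 0.515% and 5.33%, C 0.17% and 0.267%, and TKO 0.153% and 0.149%. Deeper inside, R fell to 0.341% at 300 to 1000 bp. Outside, R stayed at 11.1% to 11.3% from 31 to 300 bp and then rose to 15.5% at 300 to 1000 bp, 23.2% at 1000 to 3000 bp and 25.1% at 3000 to 10000 bp. WT outside values over the same classes were 11.2% to 11.7%, 16.0%, 24.1% and 25.5%. The median density of the tiles changed over the same classes outside, from 21 covered positions in the first 30 bp to 19 from 31 to 300 bp, 13 at 300 to 1000 bp and 6 beyond, and its part in the rise was not tested. Median coverage in WT was 128 to 145 reads outside and 133 to 141 inside.

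**Figure D4:**
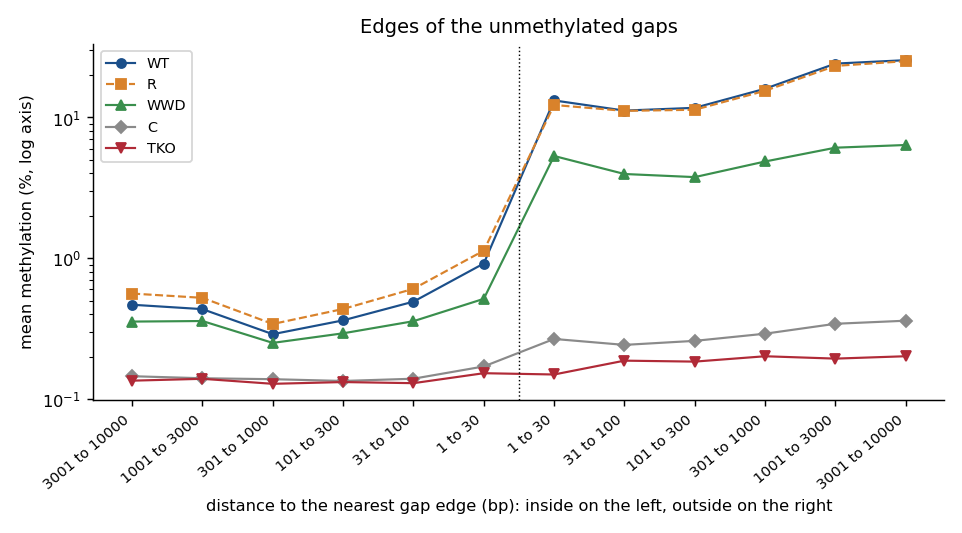
Mean methylation (y axis, %, log scale) of full-depth positions by distance in bp to the nearest edge of an unmethylated gap, inside the gap on the left and outside on the right of the dotted line, for the 5 tables. WT and R step from about 1% to over 12% across the edge and WWD to 5.33%, while TKO and C stay below 0.4% on both sides. The edges were set on WT levels.

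Sharp changes between adjacent 1 kb tiles were uncommon among the tile pairs that could be read. Tiles with under 5 covered positions could not enter, and they held 51.4% of the sites at 50% or more. How common such changes are in those tiles was not read. Of 10038 pairs of adjacent tiles with at least 5 full-depth positions each, the median change in the WT mean was 0.677 points, and 342 pairs (3.41%) changed by 25 points or more. R moved in the same direction in all 342, by a median of 29.5 points where WT had 31.9. A dense tile was part of 52 of the 342 pairs (15.2%) and of 45.1% of all pairs.

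The largest step was on chromosome 3, where WT fell from 68.8% in the tile from 151827001 to 151828000 (6 positions) to 1.11% in the next, from 151828001 to 151829000 (15 full-depth positions in a dense tile). R went from 52.4% to 1.09%, WWD from 36.4% to 1.01%, and TKO was at 0.342% and 0%. On chromosome 17 WT rose from 1.67% in the tile starting at 46582001 to 66.9% in the tile starting at 46583001, and R from 2.76% to 58.6%. The other 3 of the top 5 were steps of 62.5 points on chromosome 13 at 43460001, 59.8 on the X chromosome at 50341001 and 56.9 on chromosome 19 at 4102001. The pairs on chromosomes 17, 13 and 19 held no dense tile.

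Over whole chromosomes the sparse class was steady on the autosomes and lower on the X. At positions with under 5 per tile, autosome means ran from 27.0% (chromosome 3) to 29.7% (chromosome 8). Chromosome 8 also had the highest median WT coverage, 165 reads over its full-depth positions. In this class it held 28.6% from 10 to 95 Mb and 30.8% over the rest. The X chromosome held 19.8% over 7259 such positions, and R held 21.6% there against 28.7% on the autosomes together. WWD held 4.48% on the X and 6.37% on the autosomes, and TKO 0.245% and 0.247%. The X was lower than the autosomes in each of the 5 density classes: 16.8% against 26.2% at 5 to 9, 4.93% against 13.5% at 10 to 19, 1.16% against 2.25% at 20 to 39 and 0.324% against 0.465% at 40 or more. Median WT coverage on the X was 64 reads against 128 to 165 on single autosomes. The part of that depth in the lower level was not tested. The Y chromosome had only 139 sparse positions, at 10.2% in WT and 12.2% in R.

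Levels also differed between regions of a chromosome. Mean WT levels of the sparse class were taken in 1 Mb windows with at least 50 such positions, which gave 1574 windows. The 10th, 50th and 90th percentiles were 22.4%, 29.6% and 34.6%, a spread of 12.3 points. In the 1516 autosomal windows the 10th and 90th percentiles were 23.3% and 34.7%, a spread of 11.4 points with an SD of 4.77. Over all windows the SD was 5.05 points, where the spread of sites inside windows would give 2.06 if sites were independent, which neighbours are not. R had a 10th and 90th percentile of 22.9% and 34.3%, and the Pearson correlation of WT with R over windows was 0.966. It was 0.827 with WWD, 0.0508 with C and 0.0351 with TKO. C and TKO lay near the floor, so their low values are no contrast to R and WWD. On the autosomes alone the correlation of WT with R was 0.964 over 1516 windows. Adjacent autosomal windows had a correlation of 0.285 over 1211 pairs, so the pattern carried over only in part from 1 Mb to the next.

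The highest window was on chromosome 8 from 117000001 to 118000000, at 41.0% over 238 positions, with 40.2% in R, 10.2% in WWD and 0.414% in TKO. It was followed by chromosome 18 from 84000001 to 85000000 (40.9% in WT, 36.8% in R) and chromosome 1 from 192000001 to 193000000 (40.1% and 37.5%). The lowest windows were on the Y chromosome from 2000001 to 3000000 (7.79% in WT, 10.3% in R), chromosome 7 from 69000001 to 70000000 (9.01% and 11.1%) and the X chromosome from 108000001 to 109000000 (9.71% and 13.5%). These 3 rest on 53 to 57 positions each. R was above WT in the 3 lowest and below it in the 3 highest windows, which were chosen on the WT level.

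Autosomal windows with few covered positions had lower means. Autosomal windows were split into 5 groups of near equal size by their number of full-depth positions of any density. In the group with the fewest (52 to 234 positions) the sparse class averaged 26.3% ± 5.6 (SD over windows). The next groups held 28.9% ± 4.7, 30.7% ± 4.29, 30.8% ± 4.05 and 30.1% ± 3.45. R held 26.8% in the lowest and 30.5% in the middle group, WWD 5.59% and 6.72%, and TKO 0.252% and 0.249%. Median WT coverage also rose, from 121 to 140 reads from the lowest to the highest group, and its part in the levels was not tested. The lowest group lay 1 SD or less of its own windows below each of the other 4.

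**Figure D5:**
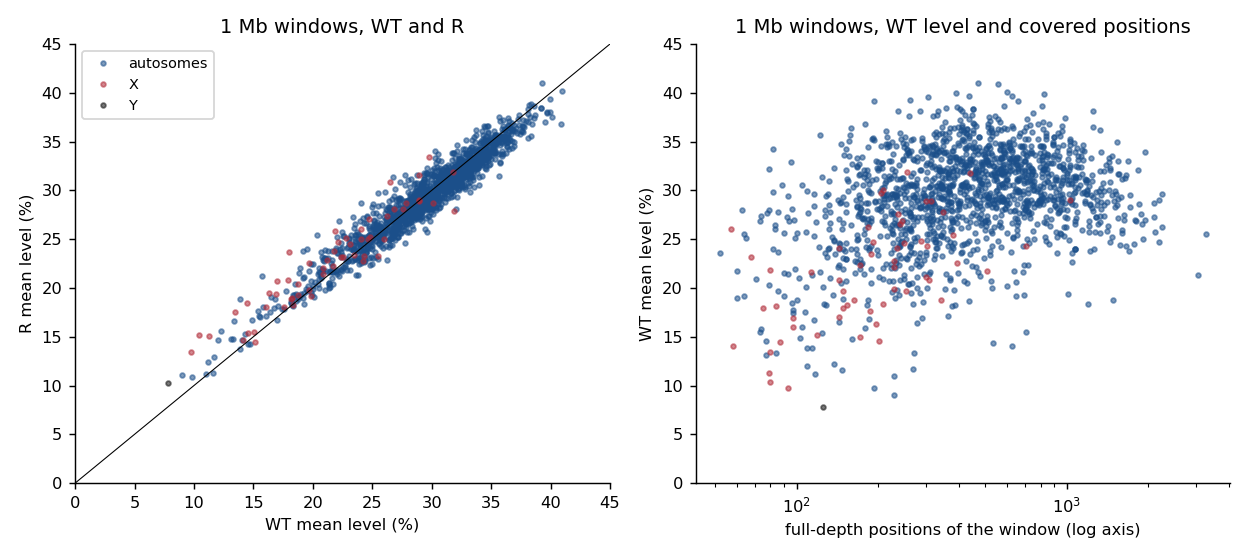
Mean WT level of the sparse class in 1574 windows of 1 Mb against the R level of the same windows (left, % on both axes, with the line of equal values) and against the number of full-depth positions in the window (right, log x axis). Points are windows, coloured for autosomes, X and Y. WT and R follow each other closely from below 10% to above 40%, X windows lie mostly in the lower part, and windows with few positions are lower on average.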

How the data were processed

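Reads were processed by the submitters. Per the submitters' processing notes, Bismark, methylKit and the build mm9 were used, without versions or order. The authors' deposited tables give coverage as a count of reads per CpG position and strand, with a minimum of 10, and the percent of reads with C, per the file headers. Of 6 deposited tables, 5 were used, since the labels name no sample for the other. The value columns left out numbered 8. Methylated reads were recovered as coverage times the percent of C, rounded.

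WT and TKO were joined on chromosome, base and strand, without the mitochondrial genome. Tests were two-sided Fisher's exact tests on reads with Benjamini-Hochberg adjustment (Python 3.11.15, numpy 2.4.6, numba 0.67.0). The test was tried on simulated reads first. Of 50 simulated sites for each change, it called 0 at 15 points, 19 at 25, 32 at 40 and 38 at 60. Of 1288664 unchanged sites it called 0. A position that was not called can therefore still differ between WT and TKO. Correlations, runs, distances and windows are descriptions without a test. Regions were named by rank: the 5 longest gaps by span and by positions, the 5 longest high runs, the 3 highest and lowest windows, and the 5 largest tile steps. Members, definitions and the gap, run and window limits were chosen with earlier results of these data known. The nearest neighbours within 30 bp, the deviations from tile means, the split by strand, the 5 groups of windows and the inner positions were chosen after the data were examined. Alternatives covered coverage, depth class, strands, thresholds and density.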

Additional observations from a re-analysis of the deposited data

How the results depend on the processing

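The values below moved by more than counting error, or, for counts, by more than 1.5 times. For the correlation and the window spread the limits, 0.005 and 0.05 points, were set by hand. Density and distance classes were kept from all joined positions when coverage or strands changed. The cause of each shift was not tested, apart from settings that test fewer positions or change a threshold by construction. Coverage minima of 20 and 30 gave TKO means of 0.169% and 0.167%, shares at 50% or more of 8.12% and 8.09%, dense-tile differences of -19.9 and -19.8 points, window spreads of 11.6 and 11.2 points, and 55 and 2 positions lower in WT; at 30 the correlation at 100 to 300 bp was 0.743. Keeping all depths gave means of 14.6% (WT) and 0.518% (TKO), a share of 10.6%, a correlation of 0.746, a dense-tile difference of -22.1 points (the value at full depth was -19.9), 1758 high runs and a window spread of 15.7 points. Full-depth positions alone gave 1 lower position. Merged strands gave 13.8%, 0.175%, 8.34% and -20.4 points. Inner positions, chosen after seeing the data, gave 9.34% (WT), 0.097% (TKO), 6.06%, a correlation of 0.697, -16.4 points, 225 high runs and a spread of 11.7 points. In tiles with under 5 positions, inner positions held 28.6% and the others 28.3%. For the dense-tile difference, a minimum of 20 positions gave -26.5 points, positions counted in either table -22.7, and sparse tiles only outside -30.4. Subtracting density gave a correlation of 0.435 and the use of 1 strand 0.726. A difference of 40 points left 193093 higher and 147 lower positions, and 10 points gave 1522 lower. High runs numbered 2341 at 40% and 79 at 60%. Windows of 0.5 Mb had a spread of 11.1 points, and tiles with fewer than 10 positions 15.3. Of 71 alternative values, 29 stayed within these limits, among them all 8 counts of gaps (8090 to 10603) and every value without the top 0.1% of coverage. No value changed sign. At 10 reads a single read is 10 points, so gaps and high runs in thinly covered DNA can be broken by 1 read. No paired analysis was possible because each group has 1 table and TKO has 1 sample.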

Other observations

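The 1 full-depth position lower in WT lay on the forward strand of the X chromosome at 107612540. TKO held 95.9% there over 49 reads and WT 22.2% over 45 reads (adjusted p = 1.64e-13 by Fisher's exact test, Benjamini-Hochberg adjusted). R held 28.6%, C 19.05% and WWD 0%. In all, 372 full-depth positions (0.0406%) were at 10% or more in TKO, 142 of them in tiles with under 5 positions, a class that held 23.1% of all full-depth positions. Dense tiles with a WT mean of 10% or more numbered 17 of 6416.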
